A study of Mus musculus with 9 samples.

Results

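Expression of 10 lipid handling genes of macrophages was examined in subcutaneous MC38 tumours after knockdown of Gad1. The genes were Apoe, Pltp, Abca1, Lpl, Lipa, Trem2, Lpcat2, Cd36, Fabp4 and Pparg. They were taken by symbol, and all 10 were among the 17134 genes with values in the 9 libraries. The list was chosen by function and with the normalized reads of knockdown and NTC tumours in view, and Lpcat2 was selected on its consistent rise. Values set against control tumours are therefore given as a description of these genes, and the comparison between the shRNAs is tested for the genes other than Lpcat2. MC38 cells are a colon adenocarcinoma line of the mouse. They carried a lentiviral shRNA against Gad1, GAD1-SHA (shA) or GAD1-SHB (shB), or a non-targeting control shRNA (NTC), were selected with puromycin, and were implanted into C57BL/6 mice. All tumours were taken on day 20, and each of the 3 groups had 3 libraries. The shRNAs were carried by the cancer cells, whereas RNA came from the whole tumour with its host cells. The sources used here do not give the age or sex of the mice, or say if mice bore 1 tumour each, so errors and p-values reflect only how far these libraries lie apart.

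Macrophages take up lipid from lipoproteins, dying cells and debris, break it down in lysosomes, store it in droplets and pass cholesterol back out of the cell. Apolipoprotein E and phospholipid transfer protein act on the particles, ABCA1 loads cholesterol and phospholipid on to apolipoproteins, and the lipases LPL and LIPA release fatty acids and cholesterol. TREM2 is a surface receptor for lipids on macrophages, CD36 and FABP4 take up and carry fatty acids, PPAR gamma is a fatty acid sensing transcription factor, and LPCAT2 builds phospholipids and platelet-activating factor, a lipid mediator. In mouse tissues these genes are also used outside macrophages: Lpl, Cd36, Fabp4 and Pparg are strongly expressed in adipocytes, and Cd36 and Fabp4 in capillary endothelium.

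Libraries held 18373748 to 24918174 assigned reads. Values are normalized reads, a gene's read count over a factor that is the same for all genes of a library. Gad1 had 13.1, 23.4 and 50.0 normalized reads in shA tumours and 21.8, 42.2 and 23.6 in shB tumours, against 281, 265 and 326 in NTC tumours. The groups did not overlap (exact two-sided permutation p = 0.0238 for 6 against 3 libraries, the smallest this test gives). Macrophage markers were present: 13 of 14 passed the filter on low values, 12 of them were higher in knockdown tumours, and Lyz2, the most abundant, averaged 13947 ± 4453 normalized reads in shA tumours and 10285 ± 1533 in shB tumours, against 1992 ± 656 in NTC tumours (SD, n = 3 each). The summed level of the 14 markers ranged from 33976 to 37169 in shA tumours and from 22477 to 29367 in shB tumours, against 2887 to 6114 in NTC tumours. More macrophages and more RNA per macrophage cannot be told apart in such samples. The library of shA replicate 1 stood apart, with 15718 summed normalized reads of 12 endothelial markers against 3778 to 5441 in the other 8 libraries, and shB replicate 1 had 10642 of 10 skeletal muscle genes against 128 to 2217 elsewhere. Of other marker lists, 10 of 10 T cell, 7 of 8 dendritic cell, 4 of 4 eosinophil, 7 of 10 fibroblast, 2 of 5 neutrophil, 2 of 9 epithelial and 1 of 10 skeletal muscle markers rose in limma, beside 15.5% of all genes, and 1 fibroblast and 1 epithelial marker fell. DESeq2 called 1 eosinophil marker, and without NTC replicate 1 the counts were 5 for fibroblasts and 0 for neutrophils and muscle. Fibroblast markers had summed levels of 15239 to 30396 in shA tumours and 17574 to 37948 in shB tumours, against 8279 to 13495 in NTC tumours. Their part in the values below was not tested.

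Most of the lipid handling genes were higher in knockdown tumours. For 8 of the 10, each of the 6 knockdown libraries lay above each of the 3 NTC libraries, a pattern seen in 16.0% of the 14600 genes tested. With both shRNAs averaged and set against NTC, 8 passed an adjusted p of 0.05 in limma as higher and none as lower, while 15.5% of all genes passed as higher. As lower, 9.49% of all genes passed. With shA alone 8 of the 10 passed as higher and none as lower, beside 11.4% and 5.59% of all genes (17.0% in either direction). With shB alone 7 passed as higher and none as lower, beside 13.4% and 7.02% (20.4% in either direction). The choice of the genes used these comparisons, so nothing is read from the counts. The median log2 change of the 10 genes was 1.56, and that of all genes tested was -0.03. Cd36 and Fabp4 did not pass in any of the 3 comparisons in limma, and Pparg did not pass with shB. Under alternatives Cd36 passed with shA in DESeq2 (adjusted p = 0.00776), with the replicate block (0.0352), with library weights (0.00932) and without the first replicates (0.0295), and for both shRNAs with weights (0.00546) and without the first replicates (0.0331). Pparg passed with shB with weights (0.00235) and without the first replicates (0.0334). The comparisons of shA and of shB with NTC share the same NTC libraries.

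**Figure D1:**
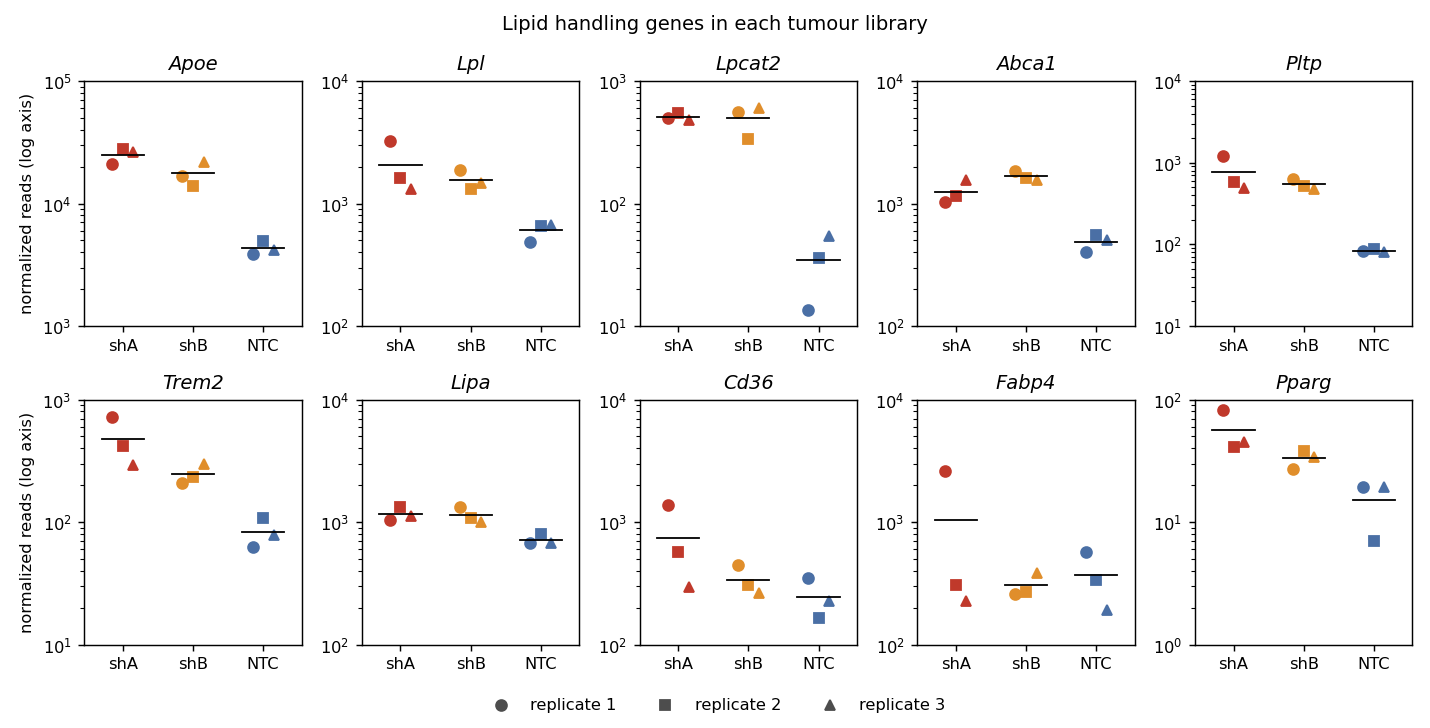
Normalized reads (log axis) of the 10 genes in every library, grouped as shA, shB and NTC, with marker shape giving the replicate and a black line the group mean (n = 3). For 8 genes all knockdown points lie above all NTC points, whereas the groups overlap for Cd36 and Fabp4, in which shA replicate 1 is far above the rest at 1378 and 2596 normalized reads.

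Apoe, Pltp and Abca1, which act on lipoprotein particles or in sterol efflux, were higher with each shRNA. Apoe encodes the apolipoprotein through which lipoproteins bind their receptors and to which macrophages add cholesterol. It had 21108, 27718 and 26379 normalized reads in shA tumours and 16881, 14025 and 21954 in shB tumours, against 3882, 4905 and 4200 in NTC tumours. The lowest knockdown library was 2.86-fold above the highest NTC library, and shB replicate 2 was the lowest of the knockdown libraries. The log2 change was 2.27 (SE 0.16) for both shRNAs, a 4.82-fold difference on the scale of log2(value + 0.5) used for all fold changes here. Pltp, which transfers phospholipids between lipoprotein particles, had 1223, 574 and 492 normalized reads in shA tumours and 637, 513 and 479 in shB tumours, against 82.2, 88.3 and 80.6 in NTC tumours. Its NTC libraries were nearly alike, and shA replicate 1 stood at 2.30 times the mean of the other shA libraries. The log2 change of Pltp was 2.87 (SE 0.27), and 2.67 without that library.

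Abca1, the transporter that loads cholesterol and phospholipid on to apolipoproteins, had 1026, 1151 and 1568 normalized reads in shA tumours and 1841, 1601 and 1548 in shB tumours, against 406, 552 and 504 in NTC tumours. It was the only gene of the 10 whose mean was higher in shB than in shA tumours. The log2 change was 1.56 (SE 0.16) for both shRNAs, a 2.95-fold difference. Abca1 is a textbook target of the liver X receptors, which bind sterol derivatives and, with RXR, sit on paired half-sites 4 bases apart. The promoters of Abca1 and Pltp are shown because sterol-sensing receptors are known to control both genes in macrophages, and that of Lpcat2 because this gene differed most. They are RefSeq sequences on build GRCm38.p6, from 250 bases before to 50 after the annotated start, given along the coding strand. Capitals mark matches on either strand to CACGTG (the E-box), to the relaxed liver X receptor element DR4 (GGTNA, 5 bases of any kind, then GGTNA again) and to TATAAA (the box bound by TBP), and no matches overlap in these 3 windows. Abca1 lies at chr4:53159846-53160145 on the minus strand, Pltp at chr2:164857659-164857958 on the minus strand and Lpcat2 at chr8:92855083-92855382 on the plus strand.
Abca1: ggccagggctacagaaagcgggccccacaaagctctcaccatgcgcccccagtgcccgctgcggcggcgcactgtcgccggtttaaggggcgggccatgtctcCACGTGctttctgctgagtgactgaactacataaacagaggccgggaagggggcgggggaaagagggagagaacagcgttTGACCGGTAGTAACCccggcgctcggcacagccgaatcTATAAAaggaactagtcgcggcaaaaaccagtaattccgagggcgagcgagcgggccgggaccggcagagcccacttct
Pltp: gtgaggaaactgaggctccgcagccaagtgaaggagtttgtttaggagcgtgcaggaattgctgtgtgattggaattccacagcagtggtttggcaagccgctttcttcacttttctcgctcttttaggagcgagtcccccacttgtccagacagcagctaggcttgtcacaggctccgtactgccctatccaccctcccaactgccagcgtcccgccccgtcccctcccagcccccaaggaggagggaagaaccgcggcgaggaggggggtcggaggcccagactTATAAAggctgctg
Lpcat2: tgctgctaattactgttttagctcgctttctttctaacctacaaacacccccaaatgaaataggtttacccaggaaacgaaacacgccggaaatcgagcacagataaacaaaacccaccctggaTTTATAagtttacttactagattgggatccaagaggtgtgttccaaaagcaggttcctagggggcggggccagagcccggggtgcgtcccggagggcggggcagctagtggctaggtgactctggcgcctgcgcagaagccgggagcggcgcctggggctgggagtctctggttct

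RefSeq promoters were at hand for 8 of the 10 genes, with 12 start sites in all. The DR4 match in Abca1 starts 67 bases before the annotated start and lies on the opposite strand, and it was the only DR4 match among the 12 windows. Of 32851 mouse promoters of the same length, 0.718% held this motif. CACGTG was found in the Abca1 window alone, and in 7.15% of all promoters. TATAAA was found in 6 of the 12 windows, and in 13.6% of all promoters. None of the 12 held GAGGAAGT (the site of PU.1, a factor that macrophages need, in 3.20% of all promoters), the relaxed PPAR element DR1 (GGNCA, 1 base of any kind, then AGGNCA, in 0.801%) or an interferon response element (GAAA, 2 bases of any kind, then GAAA again, in 3.44%). A match is a run of letters and does not show that a factor binds, and a window without one says nothing of the factor.

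The lipases differed from each other in size of change. Lpl encodes lipoprotein lipase, which frees fatty acids from the triglycerides of lipoproteins at the cell surface. It had 3232, 1619 and 1320 normalized reads in shA tumours and 1870, 1317 and 1467 in shB tumours, against 486, 656 and 672 in NTC tumours. The highest libraries were shA replicate 1, with the most endothelial marker reads, and then shB replicate 1, with the most muscle marker reads. These libraries also had the most fibroblast marker reads, 30396 in shA replicate 1 and 37948 in shB replicate 1. The part of those or other host cells in the Lpl level was not tested. The log2 change was 1.51 (SE 0.26), a 2.86-fold difference, and 1.32 without shA replicate 1. Lipa, the lysosomal acid lipase that frees cholesterol and fatty acids from lipoproteins taken up by the cell, had 1037, 1326 and 1116 normalized reads in shA tumours and 1320, 1074 and 999 in shB tumours, against 669, 796 and 668 in NTC tumours. Its groups did not overlap, yet the lowest knockdown library was only 1.25-fold above the highest NTC library. The log2 change of Lipa, 0.68 (SE 0.13), was a 1.61-fold difference, and with shA alone or with shB alone the gene no longer passed when NTC replicate 1 or NTC replicate 3 was left out.

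Trem2, the lipid receptor that marks lipid-associated macrophages, had 718, 421 and 292 normalized reads in shA tumours and 208, 235 and 298 in shB tumours, against 63.1, 107 and 77.7 in NTC tumours. Every knockdown library exceeded the NTC libraries, and the shA libraries were spread over a wider range than the others. The log2 change was 2.02 (SE 0.29) for both shRNAs, a 4.06-fold difference. Tyrobp, the adaptor through which TREM2 signals and which many other myeloid receptors use, rose 7.46-fold (adjusted p = 0.00225, limma). It had 1415, 870 and 772 normalized reads in shA tumours and 444, 558 and 715 in shB tumours, against 34.9, 137 and 203 in NTC tumours.

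Lpcat2 showed the largest difference of the 10 genes. It encodes lysophosphatidylcholine acyltransferase 2, which joins acyl groups to lysophospholipids and, in stimulated mouse macrophages, makes platelet-activating factor. It had 496, 549 and 484 normalized reads in shA tumours and 562, 339 and 604 in shB tumours, against 13.5, 36.1 and 54.7 in NTC tumours. The lowest knockdown library was 6.20-fold above the highest NTC library, and NTC replicate 1, which also had the lowest macrophage marker level, held the least. The group means were 509 ± 34.6 in shA tumours and 501 ± 142 in shB tumours, against 34.8 ± 20.6 in NTC tumours (SD, n = 3 each). The log2 change was 4.03 (SE 0.38), a 16.3-fold difference, and 3.47 without NTC replicate 1.

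The related acyltransferase genes did not show a change of this size. Lpcat1, the closest paralogue, averaged 1719 ± 137 normalized reads in shA tumours and 1707 ± 140 in shB tumours, against 1733 ± 141 in NTC tumours (SD, n = 3 each), with a log2 change of -0.02 (SE 0.10, adjusted p = 0.924, limma). Lpcat4 had a log2 change of 0.31 (SE 0.15, adjusted p = 0.152, limma) and passed as higher without shB replicate 1 (adjusted p = 0.0320). Lpcat3, the liver X receptor target that adds polyunsaturated acyl chains, fell 1.31-fold (adjusted p = 0.0326, limma). That call did not hold without any 1 of the NTC libraries, shA replicate 3, shB replicate 2 or shB replicate 3 (adjusted p 0.0526 to 0.143), with the replicate block (0.0660) or with scaling to the library total (0.0593). Other genes of platelet-activating factor rose too. Pla2g7, the enzyme that inactivates platelet-activating factor, rose 6.88-fold (adjusted p = 0.000185), and Ptafr, its receptor, rose 5.81-fold (adjusted p = 0.000786), both in limma.

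Across the 9 libraries, the genes whose log2 values followed Lpcat2 most closely were Unc93b1, which escorts nucleic-acid sensing Toll-like receptors, Pld4, an endolysosomal nuclease, Apobec1, an RNA cytidine deaminase, Slamf9 and the chemokine receptor gene Cxcr6, with Pearson r of 0.999, 0.997, 0.995, 0.995 and 0.994. These were the highest of 12996 genes with a mean of at least 40 normalized reads. The coefficients are a description: the libraries fall into knockdown and NTC groups, and 356 genes reached 0.95. Among the other lipid handling genes r with Lpcat2 was 0.956 for Apoe, 0.932 for Abca1, 0.93 for Pltp and 0.896 for Lpl and Lipa. It was 0.88 for Trem2, 0.461 for Cd36 and 0.06 for Fabp4. Pparg, with a mean under 40, was left out. Unc93b1 had 3303, 3417 and 2981 normalized reads in shA tumours and 3359, 2685 and 3743 in shB tumours, against 598, 974 and 1176 in NTC tumours, so that it shared with Lpcat2 a low value in shB replicate 2 and the lowest in NTC replicate 1.

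Cd36 and Fabp4, genes that adipocytes and capillaries share with macrophages, were least uniform. For Lpl and Pparg, which adipocytes also express, the knockdown and NTC libraries did not overlap. Cd36, a scavenger receptor and fatty acid transporter, had 1378, 568 and 294 normalized reads in shA tumours and 443, 306 and 262 in shB tumours, against 347, 164 and 227 in NTC tumours. Fabp4, a cytosolic carrier of fatty acids, had 2596, 309 and 227 in shA tumours and 260, 269 and 382 in shB tumours, against 570, 339 and 191 in NTC tumours. For both genes the groups overlapped and shA replicate 1 was the highest library, at 3.20 times the mean of the other shA libraries for Cd36 and 9.69 times for Fabp4. For both shRNAs, Cd36 had a log2 change of 0.93 (SE 0.43) and Fabp4 one of 0.31 (SE 0.68). Without shA replicate 1 these were 0.64 and -0.24, and Cd36 passed as higher without shA replicate 3, with a log2 change of 1.20. The interval of the Fabp4 change, 0.43-fold to 3.54-fold, spans differences in either direction.

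Endothelial and other markers moved with these values in shA replicate 1. Its summed endothelial level was 15718 normalized reads, and Gpihbp1, which holds LPL on the capillary wall, had 1139 there against 187 and 208 in the other shA libraries, 122 to 213 in shB tumours and 139 to 217 in NTC tumours. For both shRNAs against NTC, 0 of the 12 endothelial markers passed in limma or edgeR (2 at an unadjusted p under 0.05 in limma), whereas 2 passed as higher in DESeq2, 1 with the replicate number as a block, 2 in limma without shA replicate 1 and 4 without the first replicates, and library weights gave 3 higher and 1 lower. This library was also the highest for other host cells, with 7107 summed reads of eosinophil markers (6.76 to 745 in the other libraries), 2468 of neutrophil markers (101 to 555) and 6466 of T cell markers (313 to 2521). Of 13 adipocyte markers only Adig was analysed here, at 104 normalized reads in shA replicate 1, 5.61 and 13.1 in the other shA libraries, 0.871 to 34.4 in shB tumours and 2.25 to 8.03 in NTC tumours, so the adipocyte content of the tumours was not measured. Of the 10 lipid handling genes, 5 were at least 2-fold above the mean of the other shA libraries in this library (Fabp4, Cd36, Pltp, Lpl and Trem2), as were 8.92% of all genes tested. The part of endothelial cells, adipocytes or any of these host cells in the values was not tested.

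**Figure D2:**
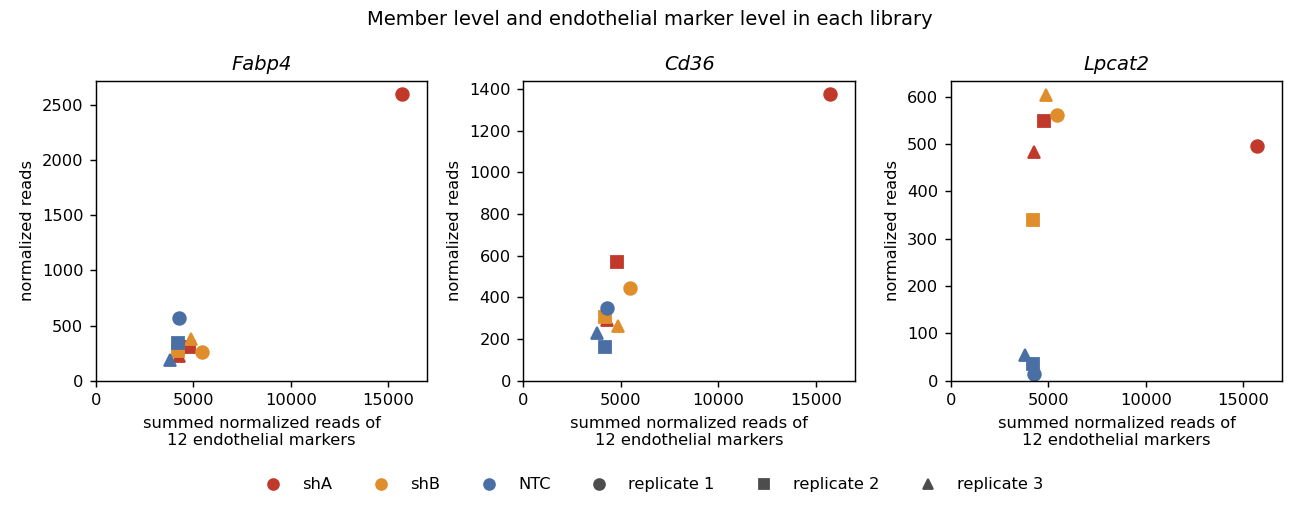
Normalized reads of Fabp4, Cd36 and Lpcat2 against the summed normalized reads of 12 endothelial markers, 1 point per library, coloured by group and shaped by replicate. The library of shA replicate 1, at 15718 endothelial marker reads, is the highest for Fabp4 (2596) and Cd36 (1378) but lies among the other knockdown libraries for Lpcat2 (496).

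Pparg, the transcription factor that drives Cd36 and Fabp4 in adipocytes and macrophages, was the least abundant of the genes. It had 81.7, 41.1 and 45.1 normalized reads in shA tumours and 27.0, 38.3 and 33.8 in shB tumours, against 19.2, 7.03 and 19.2 in NTC tumours. The groups did not overlap, and the lowest knockdown library was 1.41-fold above the highest NTC library. The log2 change was 1.57 (SE 0.42), a 2.96-fold difference. The gene no longer passed for both shRNAs without NTC replicate 2 (log2 change 1.10) or without shB replicate 2 (1.51), and with shA alone without NTC replicate 2, shA replicate 1 or shA replicate 3. Ppard, its ubiquitous paralogue, had a log2 change of 0.32 (SE 0.13, adjusted p = 0.108, limma), and passed without shA replicate 1 (adjusted p = 0.0303). Ppara was not analysed here.

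**Figure D3:**
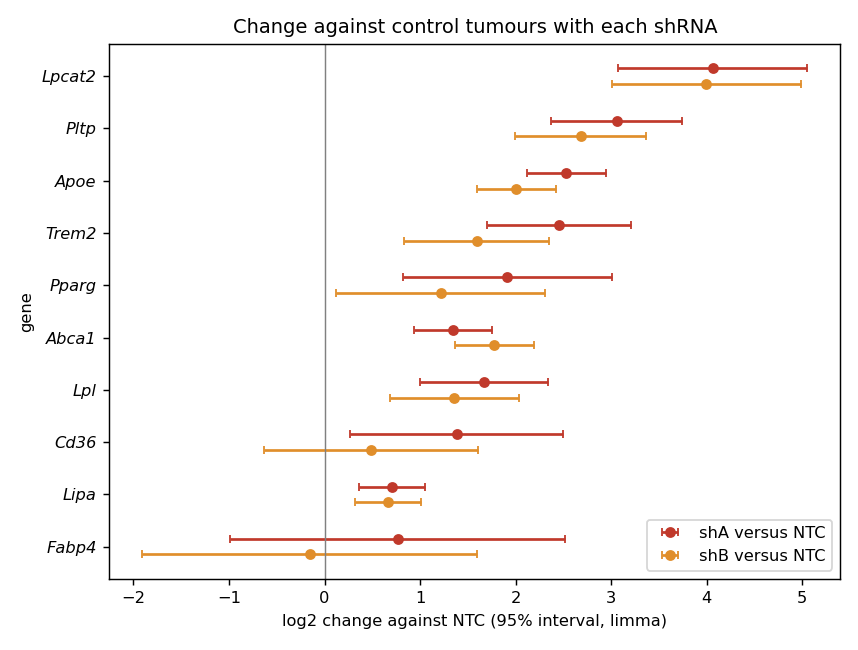
Log2 change of each gene against NTC with shA and with shB (points) and the 95% interval from limma (bars), ordered by the change for both shRNAs. Lpcat2 has the largest change with each shRNA, 16.7-fold with shA and 16.0-fold with shB, and the intervals of Fabp4 include 0 with each shRNA.

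The shRNAs were then compared with each other. The difference between them is not a measure the choice of the genes was based on, except that Lpcat2 was selected on a rise seen with both, so its values here are a description. None of the other 9 genes differed between shA and shB tumours after adjustment in limma, and none of all 14600 genes did (0.0%). At an unadjusted p under 0.05, 1010 genes or 6.92% passed, edgeR called 0 genes and DESeq2 24, with none of the 9 among them. Apoe, Trem2 and Abca1 had unadjusted p of 0.0182, 0.0288 and 0.0398, each with an adjusted p of 0.68. Their fold differences, shA over shB, were 1.44 (95% interval 1.08 to 1.91), 1.82 (1.08 to 3.07) and 0.74 (0.56 to 0.98). The mean of shA was the higher for 9 of the 10 genes. Lipa had a fold difference of 1.03 with an interval of 0.81 to 1.30. That interval is not a detection limit, because the larger difference of Trem2 was not called after adjustment either. Lpcat2 stood at 1.05-fold. For Fabp4, Lpl and Pltp the sign of the difference turned without shA replicate 1, with log2 values of -0.18, -0.07 and -0.02.

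**Figure D4:**
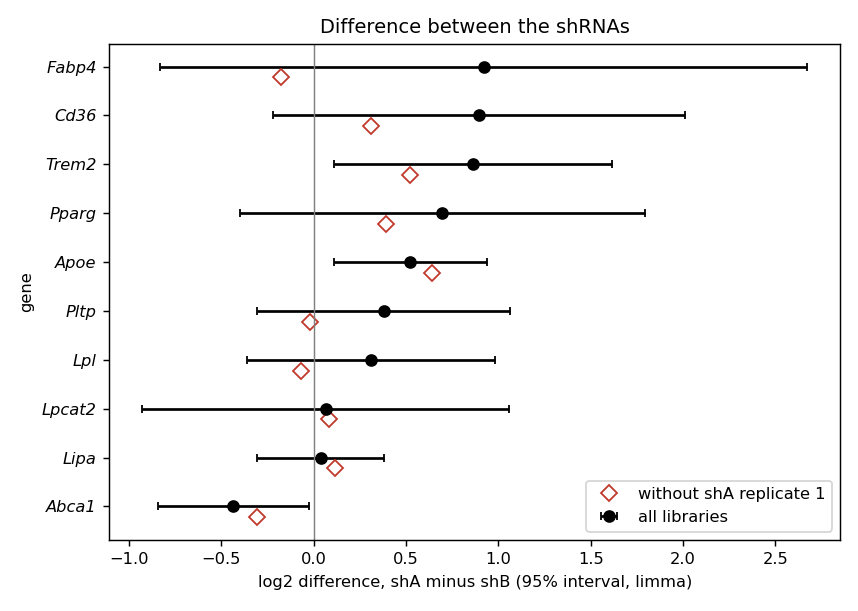
Log2 difference of shA minus shB for each gene with its 95% interval from limma (black), and the same difference without shA replicate 1 (open diamonds). All intervals but those of Trem2, Apoe and Abca1 include 0, and leaving out shA replicate 1 moves Fabp4 and Cd36 most.

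Set beside the macrophage markers, the 10 genes did not move as a block. The 13 markers tested had log2 changes of 0.26 (Mertk) to 3.40 (Aif1), with a median of 2.50. Lpcat2 and Pltp changed by more than that median, by 1.53 and 0.37 on the log2 scale, and the other 8 genes by less, down to 2.19 less for Fabp4. The mean log2 level of the markers was then subtracted in each library. That mean was 9.53 to 10.23 in knockdown libraries and 6.64 to 7.97 in NTC libraries, so a gene that rose less moves down. On that scale Lpcat2 stood at -1.27, -1.03 and -0.80 in shA tumours and -0.72, -1.13 and -0.64 in shB tumours, against -2.83, -2.77 and -2.02 in NTC tumours. It was the only gene of the 10 for which all knockdown libraries lay above all NTC libraries. Lpcat2 had been selected on its rise in these same libraries. Abca1 and Lipa lay below in all knockdown libraries, though both rose before the subtraction. The share of all genes separated on this scale was not counted, so nothing is read from these patterns. Lipa was at -0.21, 0.25 and 0.40 in shA tumours and 0.51, 0.54 and 0.09 in shB tumours, against 2.75, 1.67 and 1.58 in NTC tumours. Abca1 ranged from -0.22 to 1.11 in knockdown tumours, against 1.14 to 2.03 in NTC tumours. For the other 7 genes the groups overlapped, Apoe among them, with a mean of 4.58 in shA tumours and 4.32 in shB tumours, against 4.60 in NTC tumours. The cancer cells and other host cells also make some of these RNAs, and their part was not tested.

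**Figure D5:**
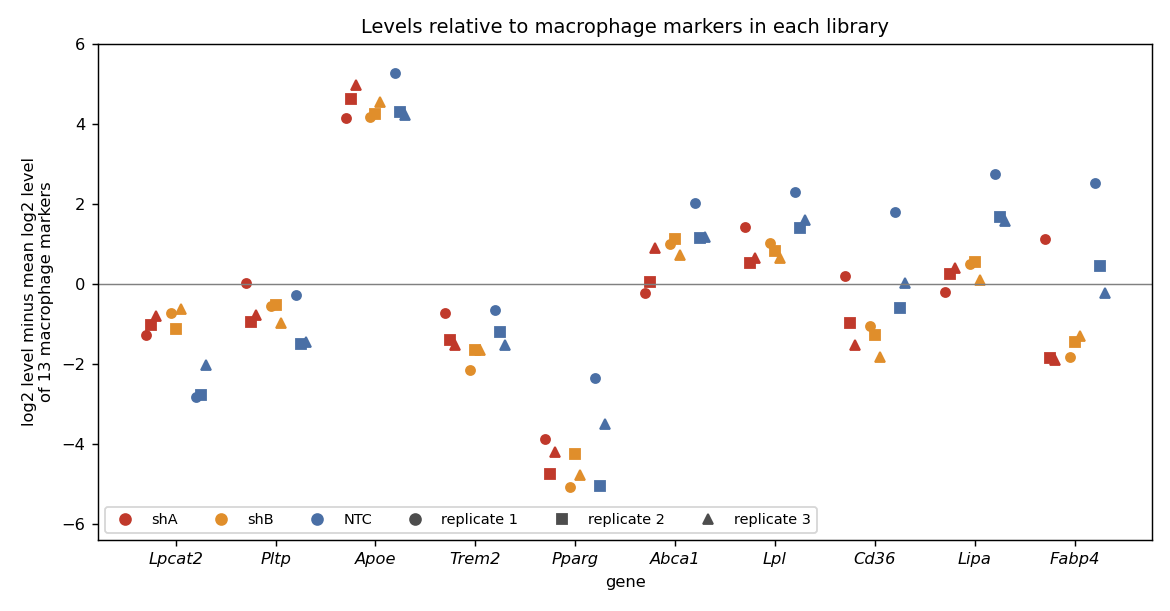
Log2 level of each gene minus the mean log2 level of 13 macrophage markers in the same library, with groups coloured and replicates shaped, and genes ordered by the difference between knockdown and NTC libraries. Lpcat2, selected on its rise, is higher in all 6 knockdown libraries than in the NTC libraries, and Lipa and Abca1 are lower. The subtracted marker mean is higher in every knockdown library than in every NTC library. NTC replicate 1 is the highest NTC library for most genes.

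Per kilobase of transcript, the order of levels was led by Apoe in every group. It averaged 17804 normalized reads per kilobase in shA tumours and 12514 in shB tumours, against 3075 in NTC tumours. Pparg was at the foot of the order, with 26.3 and 15.5 per kilobase in shA and shB tumours, against 7.12 in NTC tumours. Lpcat2 averaged 181 per kilobase in shA tumours and 178 in shB tumours, against 12.4 in NTC tumours, where of the 10 genes only Pparg was lower. Lipa, at 391 and 381 per kilobase in shA and shB tumours against 240 in NTC tumours, stood above Lpcat2 in every group. Lengths are those of the longest basic GENCODE transcript.

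The wider lipid pathways were read from 7 lists that leave out the 10 genes. The lists were chosen with earlier results of these data known, so counts and p-values of their genes are a description. Of 87 tested pathway genes, 33 rose (37.9%) and 4 fell (4.60%) for both shRNAs against NTC, beside 15.5% and 9.49% of all genes, with a median log2 change of 0.38. Without NTC replicate 1, 25 rose (28.7%) and 3 fell (3.45%), beside 10.2% and 3.58% of all genes in that fit. Among 14 genes of sterol efflux and the sterol ester cycle 4 rose and 1 fell, with a median log2 change of 0.14. The count changed with the libraries used, as did that of all genes, where 2258 rose and 1386 fell with all libraries. In the list 2 rose and none fell without NTC replicate 1, NTC replicate 2 or shB replicate 3, and with the replicate block. Without NTC replicate 3 or shB replicate 2, 3 rose and none fell. In these fits 1483 to 2001 of all genes rose and 519 to 1000 fell. Without shA replicate 1, 3 rose and 1 fell, beside 2326 and 1437 of all genes. Without shB replicate 1, 6 rose and 2 fell, beside 2980 and 2501 of all genes. Abcg1, a cholesterol exporter that works after ABCA1, rose 3.15-fold (adjusted p = 0.000768, limma), and Nr1h3, liver X receptor alpha, rose 2.40-fold (adjusted p = 0.000712). Ch25h, which makes 25-hydroxycholesterol, rose 2.83-fold, a call lost without NTC replicate 1 or 2, shA replicate 1 or 2 or shB replicate 3 (adjusted p up to 0.152) and with the replicate block (0.0664). Mylip, a liver X receptor target that degrades the LDL receptor, fell 1.30-fold, a call lost without any 1 of the NTC libraries, shA replicate 3 or shB replicate 2 or 3 (adjusted p up to 0.151), with the replicate block (0.0669) and with scaling to the library total (0.0540).

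Of 11 tested lipoprotein and scavenger receptors 5 rose and 1 fell, beside 15.5% and 9.49% of all genes, with a median log2 change of 0.72. Without NTC replicate 1, 3 rose and 1 fell, beside 10.2% and 3.58% of all genes. Olr1, a receptor of oxidized LDL, rose 19.7-fold (adjusted p = 0.000586, limma), with 145, 86.0 and 63.1 normalized reads in shA tumours and 37.4, 97.3 and 98.0 in shB tumours, against 3.38, 7.03 and 1.92 in NTC tumours. It passed the filter on low values only through the knockdown libraries. Cxcl16, which serves as a chemokine and a scavenger receptor, rose 4.89-fold (adjusted p = 0.000185), and Cd68 3.02-fold (adjusted p = 0.0005). Msr1, the class A scavenger receptor, rose 2.41-fold (adjusted p = 0.0208), or 0.0833 without NTC replicate 1. Vldlr, the very low density lipoprotein receptor, fell 3.37-fold (adjusted p = 0.00183). Olr1 was nearly absent from NTC tumours, and Vldlr was the receptor that passed as lower.

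Of 12 tested genes of lipolysis 3 rose and none fell, beside 15.5% and 9.49% of all genes, with a median log2 change of 0.20. Without NTC replicate 1, 2 rose and 1 fell, beside 10.2% and 3.58% of all genes. The 3 were Pnpla2, the adipose triglyceride lipase, by 1.74-fold (adjusted p = 0.000889, limma), Plin2, a lipid droplet coat protein, by 1.54-fold (adjusted p = 0.00331), and Lipe, the hormone-sensitive lipase, by 1.82-fold (adjusted p = 0.0128, or 0.0692 without NTC replicate 1). The other gene named by rank, G0s2, an inhibitor of PNPLA2, had a log2 change of 0.72 (SE 0.35, adjusted p = 0.163) and passed without shB replicate 1 (adjusted p = 0.00377). Gpihbp1 and Angptl4, partners of LPL, had log2 changes of 0.36 (SE 0.52) and 0.03 (SE 0.26), and both turned negative without shA replicate 1.

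Of 10 tested genes of fatty acid binding and activation 3 rose and 1 fell, beside 15.5% and 9.49% of all genes, with a median log2 change of 0.23. The acyl-CoA synthetase genes moved in opposite directions: Acsl1 rose 3.53-fold (adjusted p = 0.00229, limma) and Acsl5 1.71-fold (adjusted p = 0.00785), whereas Acsl3 fell 1.85-fold (adjusted p = 0.00154). Fabp5, the epidermal fatty acid carrier, also made by macrophages, rose 1.61-fold (adjusted p = 0.0294), a call lost without any 1 of the NTC libraries, shA replicate 3 or shB replicate 2 or 3 (adjusted p 0.0549 to 0.148). Fabp3, the heart and muscle form, had a log2 change of -1.80 (SE 0.83, adjusted p = 0.143) at a level of under 32 normalized reads in every library, and passed as lower without shB replicate 1 (adjusted p = 0.0246).

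Of 13 tested PPAR partners and oxidation genes 3 rose and none fell, beside 15.5% and 9.49% of all genes, and without shA replicate 1, 4 rose and 1 fell. The 3 were Cebpb, by 3.74-fold (adjusted p = 0.000709, limma), Cebpa, by 2.37-fold (adjusted p = 0.00114), both transcription factors of myeloid cells and adipocytes, and Acadl, a mitochondrial acyl-CoA dehydrogenase, by 2.04-fold (adjusted p = 0.00167). Among 15 genes of phospholipid remodelling, platelet-activating factor and eicosanoids 6 rose and 1, Lpcat3, fell, beside 15.5% and 9.49% of all genes. Besides Pla2g7 and Ptafr the 6 that rose included Ptgs1, cyclooxygenase 1, by 5.79-fold (adjusted p = 0.00266), and Alox5ap, which presents arachidonic acid to 5-lipoxygenase, by 4.16-fold (adjusted p = 0.00523). Of 12 TREM2 signalling and lipid-associated macrophage genes 9 rose and none fell for both shRNAs, beside 15.5% and 9.49% of all genes. Without shA replicate 1, 8 rose and 1 fell, beside 2326 and 1437 of all genes. With shB alone 7 rose and 1 fell, beside 13.4% and 7.02% of all genes. Spp1, osteopontin, named after its values were seen, had a log2 change of -0.49 (SE 0.19, adjusted p = 0.0874, limma). The genes that rose included Inpp5d, a phosphatase that restrains TREM2 signalling, by 5.74-fold (adjusted p = 0.000568), Lgals3, galectin 3, by 3.60-fold (adjusted p = 0.00113), and the lysosomal protease genes Ctsb, by 2.14-fold, and Ctsd, by 1.92-fold (adjusted p = 0.000325 and 0.000544). The summed macrophage marker level was higher in the same libraries, and its part in these counts was not tested.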

How the data were processed

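RNA-seq was analysed from 9 whole tumours (3 each of shA, shB and NTC). The deposited values are a signal, counted reads scaled by a single factor for each library in the authors' tables: within a tolerance of 0.001, 100% of the values in each library were whole multiples of its smallest value above 0. The submitters' processing notes list Cuffdiff 2.2.1 and mm9 without a role. The aligner, counter, strand setting and annotation were not named in those sources. Reads of overlapping or near-identical genes are therefore uncertain. Depth was 18373748 to 24918174 assigned reads.

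Of 17134 genes, 14600 with at least 20 normalized reads in 3 libraries were tested with limma 3.58.1 (R 4.3.3) on log2(value + 0.5), in 1 model of 3 groups with a trended prior and Benjamini-Hochberg adjustment over all tested genes. Alternatives included edgeR 4.0.16 (3499 genes called for both shRNAs, against 3644 in limma) and DESeq2 1.42.0 on recovered reads, scaling, filter, pseudocount, weights, a replicate block and each library left out. The test was checked on simulated counts. The genes, lists and naming rule were chosen with earlier results of these data known. Named besides the 10 genes were Gad1, the 4 genes of each list with the smallest p, paralogues and partners fixed by name, the most abundant gene of each marker list (Lyz2 and Adig are given with values), and the 5 genes closest to Lpcat2; other markers are named beside the result they touch. Transcript lengths are from GENCODE M21 (GRCm38).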

Additional observations from a re-analysis of the deposited data

How the results depend on the processing

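The count of lipid handling genes passing against NTC ranged from 7 to 9 for both shRNAs, 7 to 8 with shA and 6 to 7 with shB when 1 library was left out, and stayed 0 for shA versus shB. In the same fits the counts over all genes ranged from 2002 to 5481, 1265 to 3987 and 1830 to 4239 against NTC. Pathway genes passing ranged from 28 to 48, against 37 with all libraries, and marker genes from 34 to 50, against 47. With library weights 59 pathway genes passed; the weights were estimated gene by gene because the REML estimate did not converge. Over all genes, 3644 passed for both shRNAs, 2002 without NTC replicate 1, 2346 without NTC replicate 3, 5481 without shB replicate 1, 6259 without the first replicate of each group and 7848 with weights. The lowest and highest counts under the alternatives were 1265 and 4909 for shA (2478 with all libraries), 1830 and 7941 for shB (2983 with all libraries), and 0 and 26 for shA versus shB. Causes were not tested.

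Sign changes, all in results that did not pass, were as follows. Fabp4 turned against its sign without 1 library, within -0.24 to 0.69 for both shRNAs, -0.33 to 1.42 for shA, -0.56 to 0.23 for shB and -0.18 to 1.58 between the shRNAs; without the first replicates it was 0.33 for shB and -0.28 between the shRNAs. Between the shRNAs with 1 library left out, Lpl ranged from -0.070 to 0.58, Pltp from -0.020 to 0.64, Lpcat2 from -0.19 to 0.22 and Lipa from -0.062 to 0.16; scaled to the library total, Lpcat2 was -0.018 and Lipa -0.044. For both shRNAs, Lpcat1 ranged from -0.085 to 0.028, Gpihbp1 from -0.057 to 0.59 (-0.021 with weights) and Angptl4 from -0.17 to 0.16 (-0.23 with weights, -0.15 without the first replicates). Of 866 values of the 10 genes under 22 alternatives, 833 kept their direction and side of the threshold, 9 no longer passed, 10 newly passed and 14 changed sign.

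Replicate numbers were not used to pair the libraries in the main fit. Deviations of same-numbered libraries correlated at -0.34 to 0.06. With 3 libraries per group, and with shA replicate 1 and shB replicate 1 apart in marker levels, these values cannot exclude pairing. With the replicate block 8 genes passed for both shRNAs, 9 with shA, where Cd36 passed at an adjusted p of 0.0352, 7 with shB and 0 between the shRNAs. With the block 30 pathway and 45 marker genes passed for both shRNAs. Over all genes tested, the block gave 2921 for both shRNAs, 1778 with shA, 2376 with shB and 0 between the shRNAs. In the correlations of deviations, 1 shA or shB library was set against the 3 libraries of another group in 9 comparisons. Its own number gave the highest value in 2 of the 9. Counting error weighs most on values of few reads, such as those of Pparg, Fabp3 and Adig, and of Lpcat2 and Olr1 in NTC tumours.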
